A study of Mus musculus with 20 samples.

Results

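This comparison set 4 mice given high-density lipoprotein (HDL) alone against 4 mice given saline, 8 of the 20 libraries of a study of aortic endothelium. The members were chosen by treatment label: HDL 3, 4, 11 and 23, and saline 1, 2, 9 and 24, each number being the animal's own, so that the replicates are separate mice. All 20 animals were female Apoe-/- mice (B6.129P2-Apoetm1Unc/J), which lack apolipoprotein E and have high plasma cholesterol, and all had undergone 5/6 nephrectomy, the removal of most kidney tissue, at 9 weeks of age. The HDL group received 4 mg of HDL by 1 retro-orbital injection 7 weeks after surgery and the saline group received saline by the same route. The other 12 mice received the same HDL with locked nucleic acid (LNA) inhibitors at 20 mg/kg each. There were 4 such mice with LNA92a (HDL + LNA92a), 4 with LNA489 (HDL + LNA489) and 4 with both. RNA was collected 1 week after treatment by lysing the endothelial surface with qiazol. The comparison asks what the lipoprotein alone does to gene expression in the vessel wall of these animals. No animal without surgery and none with intact Apoe entered it, and the source of the HDL was not given in the sources used here.

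HDL particles take up cholesterol from macrophages and other cells through the transporters ABCA1 and ABCG1 and hand it to the liver through the receptor SR-BI, the product of Scarb1. They also carry sphingosine 1-phosphate (S1P) bound to apolipoprotein M, a lipid signal that acts on the endothelial receptor S1PR1. Through SR-BI and S1PR1, HDL is known to activate endothelial nitric oxide synthase (Nos3), and in cultured endothelial cells it lowers the adhesion molecules induced by inflammatory cytokines.

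Depth was similar in the 2 groups, with 12.4 to 15.9 M (mega) assigned reads per HDL library and 12.6 to 17.4 M per saline library. Ribosomal RNA (18S, Rn18s-rs5) made up 4.79% to 10.5% of HDL libraries and 3.90% to 12.2% of saline libraries. All 18 endothelial markers were read in every library of both groups, but the label of endothelium fitted the libraries unevenly. The summed FPKM (reads scaled to gene length in kilobases and to library size in M) of the 18 markers was 2493, 100.1, 384.6 and 3112 in HDL 3, 4, 11 and 23, against 107.0, 296.8, 867.5 and 3004 in saline 1, 2, 9 and 24. HDL 4 and saline 1 thus had the lowest sums, and each group held at least 1 rich and 1 poor library by this measure. The markers Cdh5, Cldn5 and Nos3 were also lowest in HDL 4 and saline 1. Kdr, a marker of the same list, ran the other way. It was at 13.0 FPKM in HDL 4 and 7.32 FPKM in saline 1, against 3.04, 3.24 and 1.40 FPKM in HDL 3, HDL 23 and saline 24. The 13 adipocyte markers were highest in HDL 4, saline 1 and saline 2 and summed to 174, 5414, 412 and 577 FPKM in HDL libraries, against 3225, 3299, 119 and 429 FPKM in saline libraries. The lead library differed by cell type. HDL 11 held most B cell RNA (14 markers, 6835 FPKM, against 159 to 640 FPKM in the other HDL libraries and 170 to 334 FPKM in saline). Saline 2 held adrenal cortex RNA (7 tested markers, 4.65 to 17.5 FPKM in HDL libraries, against 2159 FPKM in saline 2 and 2.75 to 8.61 FPKM in the other saline libraries). Saline 9 held the most macrophage RNA (18 markers, 1004 to 4421 FPKM in HDL libraries, against 11636 FPKM in saline 9 and 1785 to 4604 FPKM in the other saline libraries). Of defining markers, Ly6g of neutrophils was at 0 in all 4 saline libraries and Cyp11b2 of the adrenal cortex in all 4 HDL libraries. Each was also at 0 in at least 1 library of the other group, and both were too weakly expressed to be tested. In these bulk samples, fewer cells of a type and less RNA per cell cannot be told apart.

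**Figure D1:**
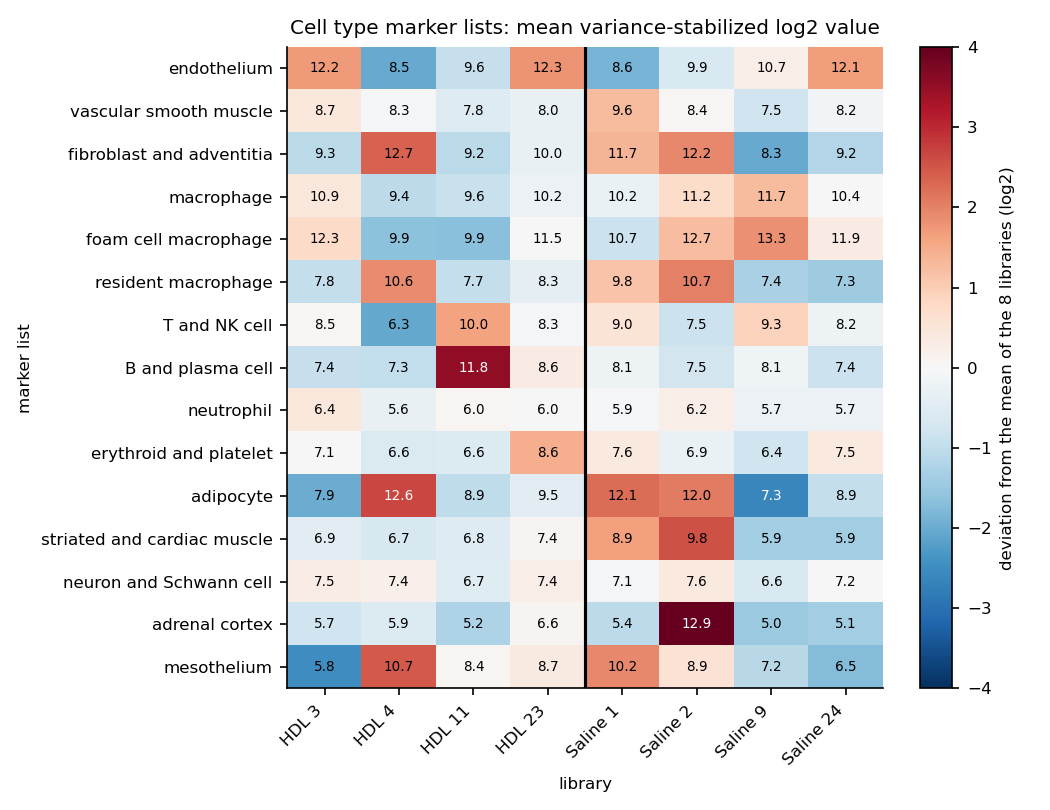
Mean variance-stabilized log2 value of each cell type marker list (rows) in the 4 HDL and the 4 saline libraries (columns), with colour giving the deviation from the mean of the 8 libraries. HDL 4, saline 1 and saline 2 are high for adipocyte and fibroblast markers, HDL 11 stands out for B and plasma cells and saline 2 for adrenal cortex.

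No gene passed the test. Of 16848 genes tested with limma on the deposited log2 values, 0 (0.0%) reached an adjusted p under 0.05, and the smallest adjusted p rounds to 1.00. At an unadjusted p under 0.05 there were 281 genes (1.67%), of which 159 (0.944%) were higher and 122 (0.724%) lower in HDL. If no gene differed, that threshold would by itself give a share of about 0.05, so this count is no result. The 4 HDL libraries lay wholly above the 4 saline libraries in 106 genes (0.629%) and wholly below them in 58 (0.344%), 164 in all (0.973%). Where a gene is said below not to overlap, this describes ranks only. A difference of at least 1 log2 unit was found in 94 genes (0.558%) upward and in 195 (1.16%) downward, while 54.0% of all genes were above 0 and 46.0% below, with a median difference of 0.03. The median SE of a difference was 0.36. The values below therefore describe the 8 libraries. Differences are given as log2 values, HDL minus saline on the variance-stabilized scale, with their SE, and the adjusted p of each named gene rounds to 1.00.

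The promoters of Rflnb, the gene with the smallest p, and of Klf2, the flow-responsive transcription factor, are shown because these are the gene that led the comparison and a factor of the flow and nitric oxide list described below. They are RefSeq windows of 300 bases on GRCm38.p6 from 250 bases before to 50 bases after the annotated start, written 5′ to 3′ along the gene's strand. Capitals mark the hexamer CCACCC or its reverse complement GGGTGG, a core recognised by Krüppel-like factors.
Rflnb, chr11:76027733-76028032, minus strand: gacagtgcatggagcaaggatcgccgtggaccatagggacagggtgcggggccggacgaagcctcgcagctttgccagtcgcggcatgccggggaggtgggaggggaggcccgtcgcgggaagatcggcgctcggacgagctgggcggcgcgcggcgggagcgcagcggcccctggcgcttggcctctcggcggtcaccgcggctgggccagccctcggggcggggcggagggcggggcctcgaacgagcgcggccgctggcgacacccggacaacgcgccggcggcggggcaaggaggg
Klf2, chr8:72318812-72319111, plus strand: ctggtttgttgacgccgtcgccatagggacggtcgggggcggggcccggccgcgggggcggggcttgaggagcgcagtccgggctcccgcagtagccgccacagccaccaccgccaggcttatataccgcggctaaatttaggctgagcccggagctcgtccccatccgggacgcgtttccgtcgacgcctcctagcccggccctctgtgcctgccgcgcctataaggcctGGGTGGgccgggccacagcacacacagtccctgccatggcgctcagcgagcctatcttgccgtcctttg
The Rflnb window held 0 matches and the Klf2 window 1. Of 32851 windows of this length in the table, 31.5% held at least 1 match on either strand, and a match describes letters only. Of the 21 genes looked up (Klf2 and, per direction, the 10 with the smallest p among genes averaging at least 1 FPKM), 11 had a window.

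Rflnb encodes refilin B, which binds filamins and organises actin bundles (chromosome 11, 76019194 to 76027782). It measured 10.6, 6.05, 12.3 and 8.88 FPKM in HDL 3, 4, 11 and 23, against 2.41, 3.72, 4.57 and 3.00 FPKM in saline 1, 2, 9 and 24. Every HDL library was above every saline library, and the log2 difference was 1.27 ± 0.26 (SE). It lay between 1.17 and 1.36 with any 1 of the 8 libraries left out. With endothelial and adipocyte list means as covariates the difference was 1.23 ± 0.25. Among the 25 genes of the actin and filamin list, to which it belongs, 12 were higher and 13 lower, with a median of -0.02.

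The other genes with the smallest p among those higher in HDL and averaging at least 1 FPKM were of mixed function. Spns2, which exports S1P from endothelial cells (chromosome 11, 72451638 to 72489904), measured 8.78, 8.25, 7.41 and 7.04 FPKM in HDL libraries, against 2.34, 3.68, 4.14 and 4.75 FPKM in saline libraries. The groups did not overlap and the HDL values were close together (log2 difference 0.99 ± 0.29, and 1.00 ± 0.28 with the same covariates). In HDL libraries Spns2 did not follow the endothelial marker sum, since HDL 4, with the lowest sum, exceeded HDL 23, with the highest. In saline libraries it rose in the order of that sum. Which cells gave these reads was not tested. The exons of Spns2 overlap those of Mybbp1a, so its reads are uncertain. 1600002K03Rik, a protein-coding gene of chromosome 10 (80172944 to 80175146), measured 3.46, 5.84, 7.28 and 3.38 FPKM in HDL libraries, against 0.797, 1.60, 1.27 and 0.467 FPKM in saline libraries, a difference of 1.06 ± 0.32. Jmjd6, which encodes a nuclear hydroxylase, was higher by a small amount, at 5.50 ± 0.773 FPKM in HDL and 3.74 ± 0.497 FPKM in saline (SD, n = 4 each), with no overlap between groups (0.48 ± 0.16). Rhebl1, a small GTPase related to Rheb, averaged 2.63 ± 0.385 FPKM in HDL and 1.13 ± 0.449 FPKM in saline, also without overlap. Rnf122, a RING finger protein, measured 1.10, 1.23, 2.71 and 0.965 FPKM in HDL libraries, against 0.506, 0.519, 0.625 and 0.395 FPKM in saline libraries.

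Arhgef3, a guanine nucleotide exchange factor, and the zinc finger gene Zfp507 overlapped between groups on the FPKM scale (27.3 ± 11.9 FPKM in HDL and 15.3 ± 2.90 FPKM in saline for Arhgef3; 4.45 ± 1.46 and 2.65 ± 1.06 FPKM for Zfp507 in the same groups). Both reached their highest value in HDL 11. Gm17300 and Gm17193 are non-coding transcripts, at 2.31 ± 0.555 FPKM in HDL and 0.980 ± 0.419 FPKM in saline for Gm17300, and at 3.36 ± 1.46 FPKM in HDL and 0.488 ± 0.478 FPKM in saline for Gm17193. Gm17300 shares exons with Rcc1 and the snoRNA host Snhg3, and Gm17193 is annotated as lying sense within an intron. Snord104, a small nucleolar RNA, had 25, 6, 30 and 34 reads in HDL libraries, against 1, 8, 2 and 0 reads in saline libraries. Gm23864 had 9, 8, 4 and 3 reads in HDL libraries and 0 in each saline library. Jmjd6, Rhebl1, Arhgef3 and Zfp507 also share exon sequence with another annotated gene, and since the strand of counting was not given, reads of overlapping genes cannot be told apart.

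**Figure D2:**
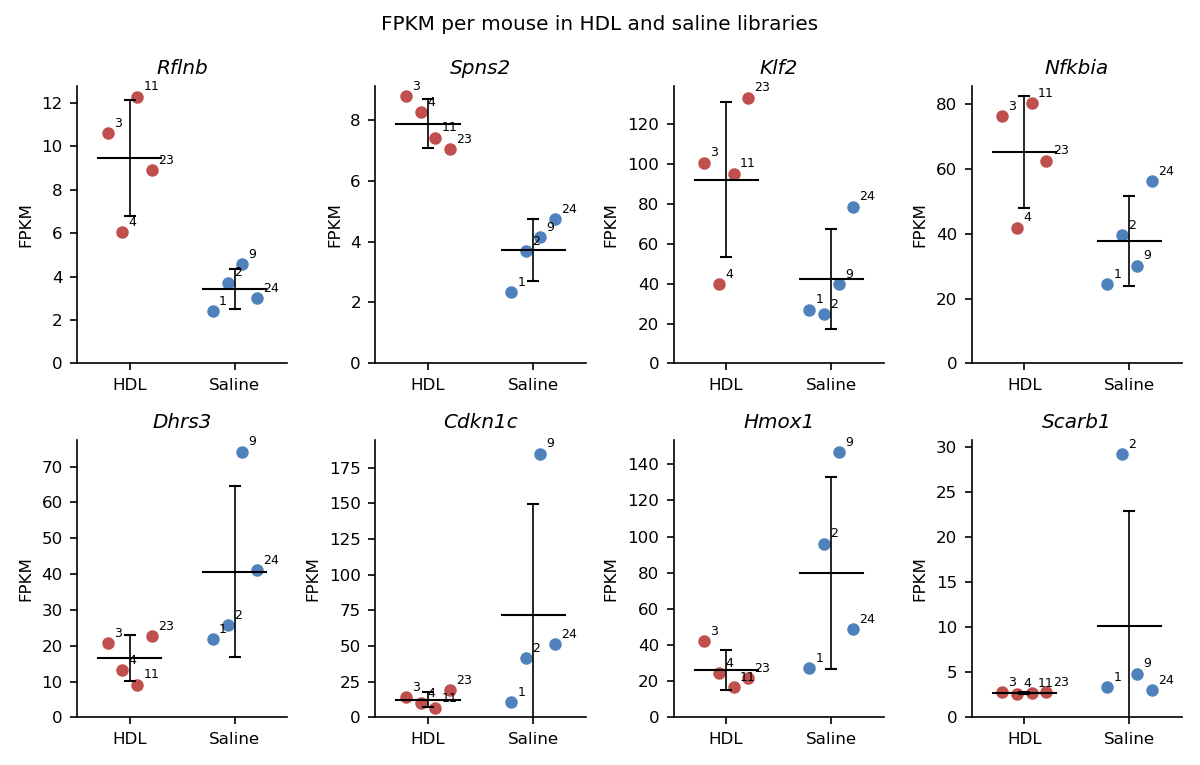
FPKM of 8 genes in each HDL mouse (left in each panel) and each saline mouse (right), with animal numbers beside the points, means as horizontal lines and SD as bars (n = 4 each, cut off at 0). Rflnb and Spns2 are separated between groups, Klf2 overlaps through HDL 4 and saline 24, and the high saline values of Cdkn1c and Hmox1 are largest in saline 9 and that of Scarb1 in saline 2.

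Of the 15 tested genes of the S1P axis, Spns2 included, 6 were higher and 9 lower in HDL, with a median of -0.06. Apom, the carrier of S1P on HDL particles, had 22, 11, 27 and 31 reads in HDL libraries, against 0, 0, 25 and 9 reads in saline libraries (0.90 ± 0.33). In FPKM the groups overlapped, with 0.682 in HDL 4 against 1.42 in saline 9 and 0.703 in saline 24, and the values rest on few reads. S1pr1, the main S1P receptor of endothelium, measured 145, 9.02, 77.5 and 135 FPKM in HDL libraries, against 9.34, 19.7, 41.9 and 124 FPKM in saline libraries. Its lowest values were in HDL 4 and saline 1, the libraries with the lowest endothelial marker sums, and the difference of 0.93 ± 0.86 was about as large as its SE. HDL 11, at 77.5 FPKM, exceeded saline 9, at 41.9 FPKM, although saline 9 had the higher endothelial marker sum. HDL 11 held most B cell RNA, and the part of that RNA in its S1pr1 value was not tested. Plpp3, a phosphatase that degrades extracellular S1P, averaged 41.8 ± 24.4 FPKM in HDL and 65.1 ± 20.3 FPKM in saline, and Asah1, which releases sphingosine from ceramide in lysosomes, 27.1 ± 11.0 and 43.1 ± 23.8 FPKM in the same groups. Both were lower by more than 0.5 log2 units, with overlap.

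Among 24 genes of the flow-responsive and nitric oxide list, 19 were higher and 5 lower in HDL, with a median of 0.23. Klf2, which laminar flow induces in endothelium (chromosome 8, 72319033 to 72321656), measured 101, 39.6, 95.2 and 133 FPKM in HDL libraries, against 26.9, 24.6, 39.8 and 78.6 FPKM in saline libraries. HDL 3, 11 and 23 exceeded all saline libraries, while HDL 4 lay just below saline 9, and the difference was 1.11 ± 0.46. With endothelial and adipocyte list means as covariates its difference was 1.01. These covariates hold no B cell term. HDL 11, at 95.2 FPKM of Klf2, was the library with most B cell RNA, and the part of that RNA in its Klf2 value was not tested. Klf4, its close relative, averaged 36.1 ± 21.6 FPKM in HDL and 25.2 ± 10.9 FPKM in saline (0.37 ± 0.54). Nos3 measured 77.8, 1.60, 16.3 and 123 FPKM in HDL libraries, against 2.35, 8.80, 34.1 and 125 FPKM in saline libraries. Both groups thus covered much the same range. With the covariates the Nos3 difference was -0.01. Nos3 is itself a member of the endothelial list, so its own values enter the adjustment and this difference cannot test it. Mef2c, a transcription factor upstream of Klf2 that B cells also express, was at 22.0 FPKM in HDL 11, against 3.23 to 4.16 FPKM in the other HDL libraries and 2.49 to 4.72 FPKM in saline. Pde5a, which breaks down the second messenger of nitric oxide, averaged 1.05 ± 0.378 FPKM in HDL and 2.39 ± 2.10 FPKM in saline. The list median ranged from -0.02 without HDL 3 to 0.42 without HDL 11.

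Of 24 tested genes for adhesion molecules, chemokines and NF-kappaB, 19 were higher and 5 lower in HDL (median 0.28). Those with the smallest p belonged to the NF-kappaB pathway itself. Nfkbia, its inhibitor and also its target (chromosome 12, 55489410 to 55492647), measured 76.4, 41.9, 80.5 and 62.6 FPKM in HDL libraries, against 24.6, 39.7, 30.2 and 56.3 FPKM in saline libraries. HDL 4 lay below saline 24 in FPKM, whereas on the variance-stabilized scale the groups did not overlap (0.78 ± 0.32). Relb, a subunit of the factor, measured 4.58, 2.78, 18.5 and 5.61 FPKM in HDL libraries, against 1.11, 2.21, 4.90 and 3.67 FPKM in saline libraries. Its difference was 1.04 ± 0.44 with all libraries and 0.60 without HDL 11, the library rich in B cell RNA. The subunit Nfkb1 and the apoptosis inhibitor Birc3 were likewise highest in HDL 11, at 26.1 and 29.4 FPKM, with at most 12.8 and 9.49 FPKM in any other library of either group. The adhesion molecules themselves gave no separation. Vcam1 measured 63.3, 3.28, 13.9 and 74.6 FPKM in HDL libraries, against 2.94, 12.3, 52.2 and 61.8 FPKM in saline libraries (0.20 ± 0.98). Icam1 differed by 0.66 ± 0.69 and E-selectin (Sele) by 0.10 ± 1.07. Ccl2, the chemokine that recruits monocytes, averaged 2.28 ± 1.86 FPKM in HDL and 10.8 ± 16.5 FPKM in saline, with 35.4 FPKM in saline 2.

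Interferon response genes were higher in 19 of 23 (median 0.22) and antigen presentation genes in 16 of 19 (median 0.19). HDL 11 gave the highest value of the 8 libraries for Irf1 (38.4 FPKM), Irf9 (24.2 FPKM), Isg15 (18.2 FPKM) and the class I gene H2-K1 (487 FPKM). It was also highest for Ciita, the activator of class II genes (54.4 FPKM, against 1.82 to 6.21 FPKM in the other HDL libraries and 1.33 to 7.90 FPKM in saline). Without HDL 11 the interferon median was -0.01 and the antigen presentation median -0.16. Ctss, the cathepsin that trims the class II invariant chain in macrophages, was lower on average, at 407 ± 321 FPKM in HDL and 877 ± 822 FPKM in saline.

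Among the genes lower in HDL that averaged at least 1 FPKM, Dhrs3 had the smallest p. It encodes a reductase that turns retinaldehyde back to retinol and is itself induced by retinoic acid (chromosome 4, 144892827 to 144928209). It measured 20.8, 13.2, 9.14 and 22.8 FPKM in HDL libraries, against 21.8, 25.7, 74.2 and 41.2 FPKM in saline libraries. In FPKM, HDL 3, 4 and 11 were below all saline libraries, HDL 23 was just above saline 1, and saline 9 was the highest of the 8. On the variance-stabilized scale the groups did not overlap (-1.19 ± 0.35). The difference was -0.92 without saline 9 and -0.89 without HDL 11. Of the 16 tested genes of retinoid metabolism, 11 were higher and 5 lower (median 0.16), with the receptor Rarg at 13.1 ± 4.39 FPKM in HDL and 9.42 ± 4.52 FPKM in saline, the retinol dehydrogenase Rdh5 at 2.12 ± 0.650 and 1.60 ± 0.865 FPKM, and the retinoid-responsive gene Rarres1 at 0.766 ± 0.223 and 1.92 ± 1.60 FPKM in the same groups.

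Several genes with a low p had their top value in saline 9. Cdkn1c, an imprinted inhibitor of the cell cycle (chromosome 7, 143458339 to 143461050), measured 14.4, 10.2, 6.40 and 19.1 FPKM in HDL libraries, against 10.7, 41.4, 185 and 51.2 FPKM in saline libraries. Saline 2, 9 and 24 were above all HDL libraries and saline 1 lay among them, with a difference of -1.87 ± 0.66 that was -1.28 without saline 9. Of the 16 imprinted growth genes tested 7 were higher and 9 lower, with a median of -0.04, and the imprinted gene Nnat averaged 2.46 ± 0.995 FPKM in HDL and 4.24 ± 1.21 FPKM in saline. Tfrc, the transferrin receptor, measured 8.61, 5.59, 11.5 and 4.67 FPKM in HDL libraries, against 10.6, 17.0, 72.2 and 21.3 FPKM in saline libraries (-1.64 ± 0.68). On the variance-stabilized scale its groups did not overlap, and the difference was -1.17 without saline 9. Mamdc2, a proteoglycan of the matrix, averaged 2.55 ± 1.91 FPKM in HDL and 12.9 ± 12.2 FPKM in saline, with 30.6 FPKM in saline 9. Cdk20, a cyclin-dependent kinase, averaged 3.33 ± 2.59 and 9.22 ± 5.26 FPKM in the same groups, the kinesin Kif1a 0.911 ± 0.508 and 4.29 ± 3.30 FPKM, and Arhgap10, a GTPase-activating protein, 7.90 ± 1.87 and 17.4 ± 10.9 FPKM, each highest in saline 9. Ttc7b, a scaffold of a phosphatidylinositol kinase complex, measured 8.94, 8.16, 9.05 and 11.5 FPKM in HDL libraries, against 11.8, 15.5, 29.5 and 15.4 FPKM in saline libraries, without overlap.

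Prune1, a phosphatase of short polyphosphates, differed by a small and even amount: 3.60, 3.98, 4.28 and 4.57 FPKM in HDL libraries, against 5.34, 5.24, 7.51 and 6.71 FPKM in saline libraries (-0.52 ± 0.20). Its groups did not overlap, and the difference stayed between -0.60 and -0.46 with any 1 library left out. Prkar1b, a regulatory subunit of protein kinase A, averaged 0.665 ± 0.365 FPKM in HDL and 1.68 ± 0.640 FPKM in saline. Cdk20, Cdkn1c, Arhgap10, Ttc7b, Prune1 and Prkar1b share exon sequence with other annotated genes and are uncertain to that extent. The weakest signals came from non-coding or little-studied loci. The pseudogene Gm34248 had 1, 0, 4 and 0 reads in HDL libraries, against 36, 6, 8 and 8 reads in saline libraries, and 9530022L04Rik had 3, 6, 7 and 0 reads in HDL libraries, against 22, 19, 24 and 20 reads in saline libraries. 1700003F12Rik averaged 0.962 ± 0.825 FPKM in HDL and 3.27 ± 0.993 FPKM in saline.

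Macrophage genes were lower in HDL without exception among the 18 markers tested, with a median of -0.95, and so were all 12 foam cell markers (median -1.27). Adgre1, which encodes the F4/80 antigen of macrophages, was the marker with the smallest p (-1.15 ± 0.42). It measured 11.7, 9.72, 5.96 and 8.39 FPKM in HDL libraries, against 25.9, 30.7, 18.7 and 10.9 FPKM in saline libraries. Only HDL 3 and saline 24 crossed. The complement genes C1qa (112 ± 50.2 FPKM in HDL and 180 ± 61.1 FPKM in saline) and C1qb (224 ± 154 and 478 ± 342 FPKM in the same groups) and the Fc receptor gamma chain Fcer1g (43.3 ± 30.7 and 89.2 ± 58.6 FPKM) overlapped widely. Gpnmb, a glycoprotein of lipid-laden macrophages, measured 367, 12.7, 64.7 and 222 FPKM in HDL libraries, against 68.4, 441, 1584 and 423 FPKM in saline libraries (-2.07 ± 1.14). The lowest saline value was below 2 of the HDL values. Spp1 (osteopontin) averaged 208 ± 287 FPKM in HDL and 543 ± 616 FPKM in saline, and the elastase Mmp12 30.2 ± 38.6 and 65.6 ± 69.2 FPKM in the same groups. The macrophage median was -0.59 and the foam cell median -0.96 without saline 9. The 8 markers of resident macrophages had a median of -0.32, with 2 higher and 6 lower.

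The lysosome list, which shares Ctsd and Atp6v0d2 with the foam cell list and Ctss and Cd68 with the macrophage list, had 28 of 29 genes lower in HDL (median -0.77), which was -0.38 without saline 9 and -1.23 without saline 1. Lipa, the acid lipase that frees cholesterol from lipoproteins, averaged 58.5 ± 34.8 FPKM in HDL and 168 ± 163 FPKM in saline. The collagen-cutting cathepsin Ctsk measured 20.1, 8.44, 1.83 and 5.55 FPKM in HDL libraries, against 8.74, 36.0, 46.9 and 14.5 FPKM in saline libraries (-1.46 ± 0.58). HDL 3 was above saline 1 and saline 24. Ctsd averaged 231 ± 168 FPKM in HDL and 652 ± 568 FPKM in saline, the galactosidase Gla 4.48 ± 3.94 and 15.1 ± 14.3 FPKM in the same groups, and the proton pump subunits Atp6v1a 20.1 ± 9.24 and 44.7 ± 35.0 FPKM and Atp6v0d2 45.9 ± 42.5 and 159 ± 182 FPKM.

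Genes of heme breakdown and antioxidant defence were lower in 21 of 24 (median -0.43). Hmox1, heme oxygenase 1 (chromosome 8, 75093621 to 75100589), measured 42.3, 24.6, 16.7 and 21.9 FPKM in HDL libraries, against 27.4, 96.0, 147 and 48.9 FPKM in saline libraries (-1.37 ± 0.61). HDL 3 exceeded saline 1, and the difference was -1.06 without saline 9 and -1.13 without HDL 11. Srxn1, sulfiredoxin, averaged 7.47 ± 3.23 FPKM in HDL and 22.6 ± 15.3 FPKM in saline (-1.34 ± 0.51), which was -0.92 without saline 2. Slc48a1, which carries heme out of lysosomes, measured 25.4, 34.2, 19.8 and 32.7 FPKM in HDL libraries, against 36.6, 41.8, 61.1 and 36.4 FPKM in saline libraries, without overlap in FPKM. On the variance-stabilized scale its groups overlapped. Its exons overlap Hdac7. The ferritin heavy chain Fth1 averaged 938 ± 290 FPKM in HDL and 2128 ± 1418 FPKM in saline. Markers of macrophages moved with the lysosome and heme genes in the same libraries, and their part in these differences was not tested.

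The receptors and lipases that handle HDL were lower in 7 of 8 tested genes, with a median of -0.88. Lpl, a member of this list, is also in the foam cell list. Scarb1 (chromosome 5, 125277087 to 125341094) measured 2.84, 2.65, 2.66 and 2.80 FPKM in HDL libraries, against 3.38, 29.2, 4.86 and 2.99 FPKM in saline libraries. The HDL values were close together and below all saline values in FPKM, whereas on the variance-stabilized scale the groups overlapped. The difference of -1.13 ± 0.63 rested on saline 2 and was -0.35 without it. Saline 2 also had the highest adrenal marker sum, at 2159 FPKM, and the part of adrenal RNA in its Scarb1 value was not tested. The scavenger receptor Cd36 averaged 101 ± 84.5 FPKM in HDL and 202 ± 106 FPKM in saline, lipoprotein lipase (Lpl) 91.9 ± 100.3 and 154 ± 80.8 FPKM in the same groups, and the endocytic receptor Lrp1 52.5 ± 31.1 and 101 ± 52.9 FPKM. Cd36, Lpl and Lrp1 each had their lowest value in HDL 11. Among HDL libraries each was highest in HDL 4, at 219, 239 and 93.0 FPKM, the library with the highest adipocyte marker sum. The part of adipocyte RNA in these values was not tested.

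Cholesterol efflux genes were lower in 16 of 19 (median -0.43). On the variance-stabilized scale 1 member, not named here, had groups that did not overlap, and it was higher in HDL. Over all tested genes this share was 0.629%. This list shares Lipa, Npc1 and Npc2 with the lysosome list, so the 2 lists are not independent. Abca1 measured 134, 44.7, 66.9 and 85.0 FPKM in HDL libraries, against 50.9, 121, 345 and 134 FPKM in saline libraries (-0.78 ± 0.48). Abcg1 measured 92.1, 10.2, 66.2 and 63.6 FPKM in HDL libraries, against 29.3, 72.3, 284 and 99.9 FPKM in saline libraries (-0.98 ± 0.69). In both genes saline 9 was the highest of the 8 and HDL 4 the lowest, and without saline 9 the differences were -0.38 for Abca1 and -0.49 for Abcg1. Saline 9 also had the highest macrophage marker sum (11636 FPKM), and the part of macrophage RNA in the efflux genes was not tested. Pltp, the phospholipid transfer protein, was the member with the smallest p, at 62.1 ± 35.7 FPKM in HDL and 136 ± 94.1 FPKM in saline, although its exons overlap Ctsa. Soat1, which esterifies cholesterol for storage, averaged 11.8 ± 5.65 FPKM in HDL and 30.3 ± 25.1 FPKM in saline, and Npc2, which moves cholesterol out of lysosomes, 59.2 ± 10.3 and 91.8 ± 47.2 FPKM in the same groups. Apoe, whose gene is inactivated in all 20 mice, was still read at 11.9, 7.20, 4.36 and 22.6 FPKM in HDL libraries, against 3.31, 8.14, 17.3 and 26.0 FPKM in saline libraries. Without intact animals to set it against, this level does not check the genotype. Apoa1, the main protein of HDL made by liver and gut, had 0, 0, 0 and 12 reads in HDL libraries and 0 in each saline library, and was not tested.

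Of 26 genes for synthesis and uptake of cholesterol, 6 were higher and 20 lower in HDL, with a median of -0.11. Tm7sf2, a sterol reductase, was higher without overlap in FPKM, with 0.788 FPKM as the lowest HDL value and 0.720 FPKM as the highest saline value. Its groups overlapped on the variance-stabilized scale, and it shares exon sequence with Vps51. Sqle (0.716 ± 0.400 FPKM in HDL and 1.22 ± 0.114 FPKM in saline) and Dhcr7 (2.32 ± 0.545 and 5.37 ± 4.10 FPKM in the same groups), both enzymes of cholesterol synthesis, had lower means in HDL. Insig2, a brake on sterol synthesis, averaged 11.9 ± 1.54 FPKM in HDL and 9.10 ± 2.22 FPKM in saline.

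**Figure D3:**
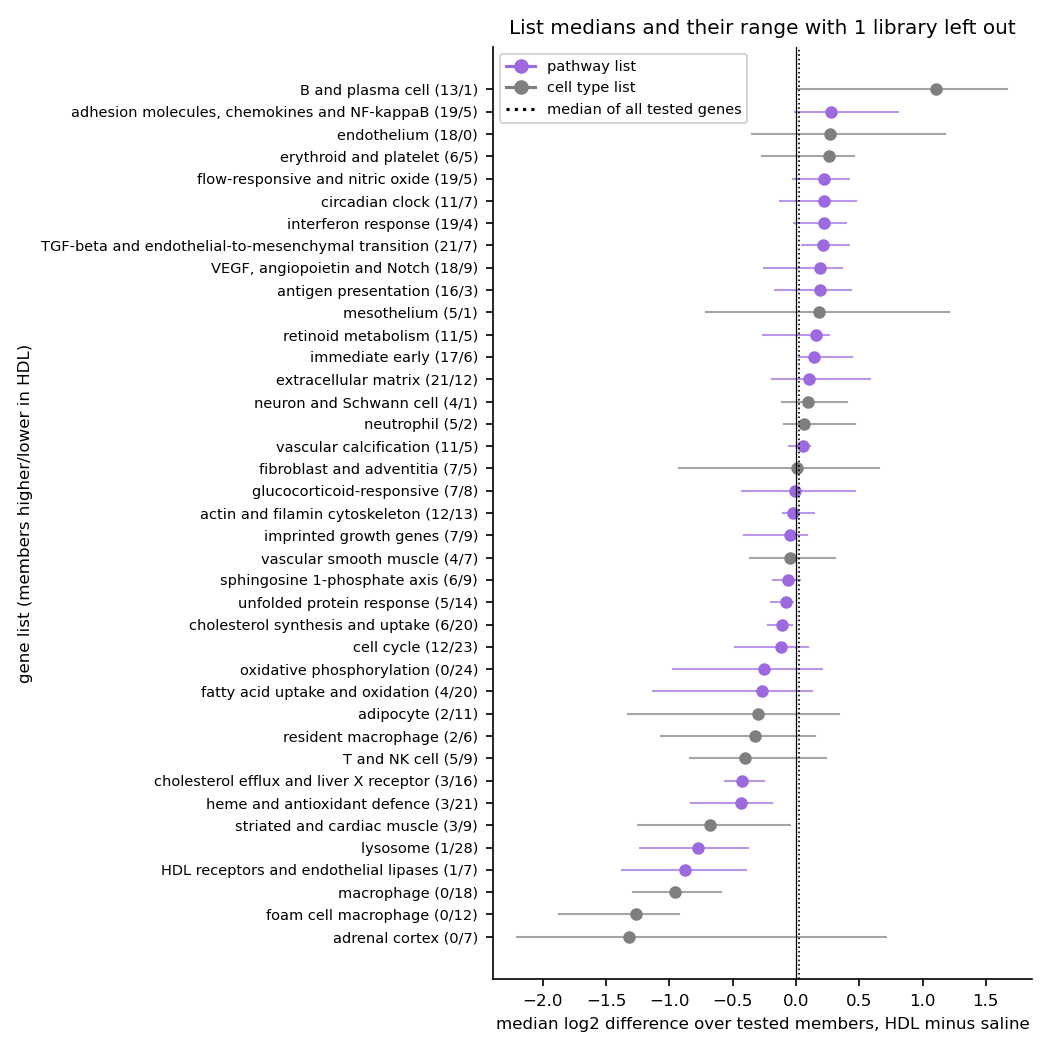
Median log2 difference, HDL minus saline, over the tested members of each gene list (points), with the range when 1 of the 8 libraries is left out (lines), and members higher and lower in HDL in brackets. The macrophage, foam cell and lysosome lists stay below 0 throughout, while the B cell list comes down to 0.02 and the adrenal cortex list crosses 0.

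In 3 further cell type lists 1 library set the median. B and plasma cell genes were higher in 13 of 14 (median 1.10), but the median was 0.02 without HDL 11. Jchain, the joining chain of secreted antibody, measured 2.28, 3.47, 125 and 22.3 FPKM in HDL libraries, against 6.20, 2.58, 2.42 and 2.29 FPKM in saline libraries. HDL 11 and, less so, HDL 23 stood out, and HDL 3 and HDL 4 were at the saline level. Igkc was at 4222 FPKM in HDL 11, against 58.6 to 378 FPKM in the other HDL libraries and 57.3 to 152 FPKM in saline, and the B cell receptor chains Cd79a and Cd79b had the same order of libraries at the top. Adrenal genes were lower in 7 of 7 (median -1.32), and without saline 2 the median was 0.71. Hsd3b1, a steroid dehydrogenase, was at 0.655, 0.068, 0.109 and 4.32 FPKM in HDL libraries, against 0.032, 685, 0.093 and 0.384 FPKM in saline libraries. Star and Akr1b7 were likewise far highest in saline 2. Striated and cardiac muscle genes had a median of -0.68, which was -0.04 without saline 2. Myh6, the cardiac myosin, measured 0.523, 0.228, 0.948 and 4.79 FPKM in HDL libraries, against 12.3, 48.1, 1.06 and 1.16 FPKM in saline libraries, and Tnni3 and Pln were also highest in saline 1 and 2.

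Endothelial markers were higher in 18 of 18 but by a median of 0.27, with the sign turning to -0.35 without saline 1 and -0.21 without HDL 3. Cdh5 (VE-cadherin) measured 182, 8.69, 21.4 and 184 FPKM in HDL libraries, against 7.07, 20.1, 62.1 and 174 FPKM in saline libraries, and both groups held libraries at either end of that range. The junction genes Cldn5 (65.6 ± 64.8 FPKM in HDL and 37.9 ± 48.1 FPKM in saline) and Esam (45.2 ± 38.0 and 34.8 ± 35.1 FPKM in the same groups) had SDs as large as their means or nearly so. Since all markers of a list come from the same 8 libraries, their agreement in sign is not 18 observations. Smooth muscle (median -0.04) and fibroblast markers (0.01) gave medians near 0, although Myh11 of smooth muscle reached 54.7 FPKM in saline 1, against 2.45 to 9.81 FPKM in HDL libraries and 4.69 to 7.40 FPKM in the other saline libraries. T and NK cell genes had 5 of 14 higher (median -0.40), adipocyte genes 2 of 13 (-0.30), neutrophil genes 5 of 7 (0.06), erythroid and platelet genes 6 of 11 (0.26), neuron and Schwann cell genes 4 of 5 (0.10) and mesothelial genes 5 of 6 (0.18).

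The list medians of oxidative phosphorylation (-0.25, with 0 of 24 higher) and fatty acid oxidation (-0.27, 4 of 24 higher) were above 0 when saline 1, saline 2 or HDL 3 was left out. In both lists the library means were highest in HDL 4, saline 1 and saline 2, which also had the highest adipocyte marker sums of the 8. With endothelial and adipocyte list means as covariates the medians were -0.014 for oxidative phosphorylation and -0.03 for fatty acid oxidation, with 10 of 24 higher in each. Fabp4 belongs to the adipocyte, the fatty acid and the foam cell list. The part of adipocyte RNA in these medians was not tested. TGF-beta genes had 21 of 28 higher (median 0.21), with Snai2, a factor of mesenchymal transition, at 1.12, 3.06, 0.965 and 3.15 FPKM in HDL libraries, against 0.828, 0.267, 0.679 and 1.87 FPKM in saline libraries, and Zeb2 at 8.70 ± 1.80 FPKM in HDL and 15.8 ± 8.66 FPKM in saline. Angiogenic and Notch genes had 18 of 27 higher (median 0.19). Flt4, the lymphatic VEGF receptor, averaged 5.82 ± 2.91 FPKM in HDL and 3.58 ± 3.76 FPKM in saline, while Pgf, a growth factor of the VEGF family, averaged 0.231 ± 0.135 and 1.10 ± 0.714 FPKM in the same groups. Cell cycle genes had 12 of 35 higher (median -0.12). Immediate early genes had 17 of 23 higher (0.14), the circadian clock 11 of 18 (0.22), the matrix list 21 of 33 (0.10), the calcification list 11 of 16 (0.05), the glucocorticoid list 7 of 15 (0.00) and the unfolded protein response 5 of 19 (-0.08).

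**Figure D4:**
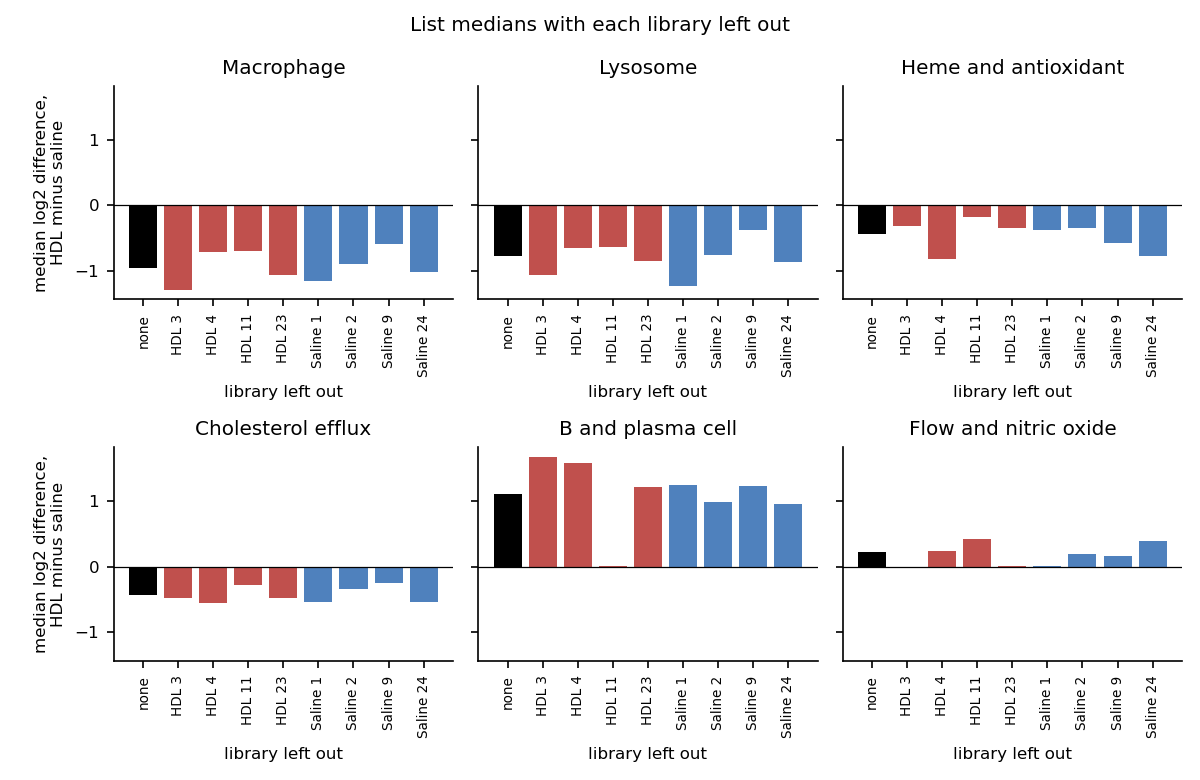
Median log2 difference, HDL minus saline, of 6 gene lists with all 8 libraries (black) and with each HDL library (red) or saline library (blue) left out. The macrophage, lysosome, heme and efflux medians stay below 0 in every bar, the B cell median is 0.02 without HDL 11, and the flow and nitric oxide median lies at or near 0 without HDL 3, HDL 23 or saline 1.

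The 12 mice given HDL with an inhibitor also received HDL, so their levels were set beside these values with no test, because any comparison would share the HDL or the saline libraries and the inhibitors differ. Rflnb averaged 9.45 ± 2.66 FPKM in HDL, 5.59 ± 2.09 FPKM in HDL + LNA92a, 3.75 ± 1.51 FPKM in HDL + LNA489, 5.88 ± 1.26 FPKM in HDL + LNA92a + LNA489 and 3.42 ± 0.931 FPKM in saline (SD, n = 4 each). Of the 12 inhibitor libraries, 8 lay above the highest saline value and 1 below the lowest. Spns2 averaged 7.87 ± 0.789, 6.79 ± 2.72, 8.33 ± 4.75, 5.99 ± 1.62 and 3.73 ± 1.02 FPKM in the same order of groups, and 10 of the 12 inhibitor libraries were above the highest saline value. 1600002K03Rik was above the highest saline value in 10 of the 12 too. In Klf2, which averaged 92.2 ± 38.9, 62.4 ± 41.3, 57.4 ± 29.5, 87.9 ± 61.8 and 42.5 ± 25.0 FPKM in that order, 3 of the 12 were above the highest saline value and 0 below the lowest. For Rhebl1 the inhibitor libraries were like saline, with 1 of 12 above its highest value and 1 below its lowest. Zfp507 was above the highest saline value in 0 of the 12, Gm17300 in 3, Arhgef3 in 5, Gm17193 and Jmjd6 in 7 each and Snord104 in 9. The genes were named with the same saline values, so these counts and those below are not independent of the naming. No share over all genes was set beside them.

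**Figure D5:**
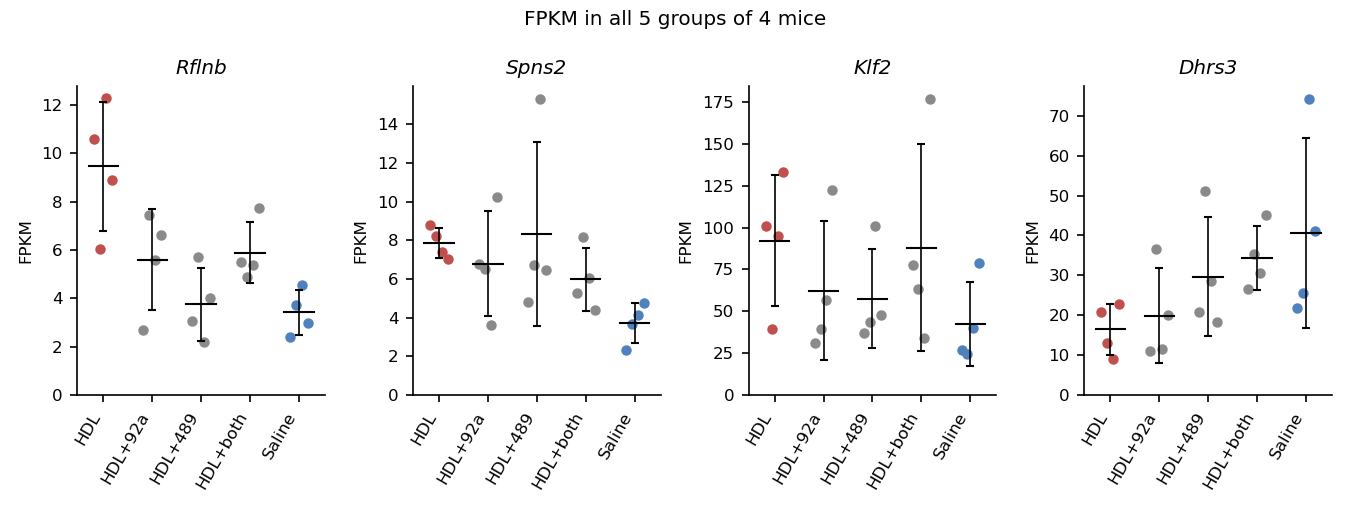
FPKM of Rflnb, Spns2, Klf2 and Dhrs3 in the 4 mice of each of the 5 groups, with HDL at the left and saline at the right, means as horizontal lines and SD as bars. Spns2 is above saline in all 4 HDL-treated groups on average, while for Rflnb the HDL + LNA489 mean of 3.75 FPKM is near the saline mean of 3.42 FPKM.

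Genes lower in HDL were spread in these libraries too. Dhrs3 averaged 16.5 ± 6.41, 19.9 ± 12.0, 29.7 ± 15.0, 34.4 ± 7.96 and 40.7 ± 23.8 FPKM in the same order of groups, and 5 of the 12 inhibitor libraries were below the lowest saline value and 0 above the highest. Cdkn1c was below the lowest saline value in 3 of the 12, Mamdc2 in 4, Prune1 in 7 and Tfrc in 8. Hmox1 averaged 26.4 ± 11.1, 16.5 ± 10.4, 75.8 ± 101.3, 74.0 ± 46.1 and 79.8 ± 53.1 FPKM in that order, with 4 of the 12 below the lowest saline value and 1 above the highest. Scarb1 was above the highest saline value, that of saline 2, in 0 of the 12 and below the lowest in 6.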

How the data were processed

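RNA of 20 libraries was sequenced after preparation with a Nugen Ovation kit, per the labels' protocols. The authors deposited variance-stabilized log2 values (20442 genes) and FPKM with gene lengths (32081 genes). The tools listed by the submitters' processing notes, without their roles, are STAR 2.5.3a, cutadapt 1.16, DESeq2 1.18.1, featureCounts 1.15.29 and FastQC, and the build is GRCm38.p5. The strand of counting was not given in the sources used here. Ribosomal reads are part of the total by which FPKM is scaled, and the variance-stabilized scale compresses differences of weakly expressed genes.

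The deposited log2 values were compared with limma 3.58.1 (R 4.3.3). The fit had 5 group means over 20 libraries (15 residual degrees of freedom), and its variances were moderated along a trend with the mean. The 16848 genes with a mean FPKM of at least 0.5 were tested, 2-sided, with Benjamini-Hochberg adjustment over all of them and a threshold of 0.05. The procedure was tested on simulated data. Reads per gene, and with them the depth, were recovered because FPKM times length is a whole multiple of a fixed step in each library. This held within 0.1 reads for 100% of values checked (lengths up to 3000 bases, up to 1000 reads).

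Named genes are the 10 per direction with the smallest p and a mean FPKM of at least 1 over the 8 libraries, a fixed set of HDL, S1P, flow and adhesion genes, up to 4 members with the smallest p of each list, and the 5 per direction with the widest gap between groups. Some genes that this rule names are not reported here. The comparison, the 39 gene lists and the tests were chosen with earlier results of these data known, so lists are described by counts and medians and carry no test. List values per library are means of variance-stabilized values or sums of FPKM. Coordinates are 1-based from GENCODE M21 on GRCm38, in which 31929 of 32081 gene identifiers were found without their version. Exons of another gene also overlap those of Nos3, Vcam1, Icam1, Irf1, Irf9, Ciita, Pde5a, Rdh5, Nnat, Zeb2, Spp1, Mmp12, Ctsd, Tnni3, Pln, Myh6, Akr1b7 and 1700003F12Rik, so their reads are uncertain to that extent. Alternatives changed the scale, the filter, the libraries fitted, library weights, composition covariates and the count model (voom on the recovered reads). Python 3.11.15 with pandas 2.3.3 was used for the tables.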

Additional observations from a re-analysis of the deposited data

Results flagged for a closer look

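Within groups of 4, the highest or lowest library was tested for standing apart by Dixon's criterion at its 95% critical value in 306 groups, each gene or list counted once per group. It did so in 11, where chance alone gives about 1 in 20, so the count as such is no result. All values are variance-stabilized log2 values. HDL 11 stood apart in 3 of them. It was lowest of the HDL libraries for the neuron and Schwann cell list (6.68, against 7.39 to 7.47 in the others) and for Flt4 (7.70, against 9.68 to 9.85), and highest for Mef2c (12.00, against 9.68 to 9.80). HDL 4 was highest for the VEGF receptor gene Kdr (10.97, against 8.65 to 8.70). Saline 2 was highest of the saline libraries for the adrenal cortex list (12.87, against 4.98 to 5.42), for Akr1b7 (12.31, against 4.54 to 4.85) and for Hsd3b1 (14.26, against 4.54 to 5.17). Saline 1 was highest for Myh11 (12.53, against 8.66 to 9.27) and the pseudogene Gm34248 (6.06, against 4.98 to 5.11) and lowest for Pgf (4.54, against 5.87 to 6.03). Saline 24 was lowest for Prkar1b (6.18, against 7.02 to 7.18).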

How the results depend on the processing

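The count of called genes was 0 under all 18 alternatives, with the smallest adjusted p (0.81) under library weights. The 281 genes at an unadjusted p under 0.05 became 137 with only the 8 libraries fitted, 899 with library weights, 804 with endothelial and adipocyte covariates, 605 without HDL 11 and saline 2 together, and 224 to 656 with 1 library left out (656 without HDL 4, 556 without saline 24, 451 without HDL 11 and 443 without HDL 3). The 164 genes without overlap became 94 on either FPKM scale, 1181 without HDL 11 and saline 2, and 277 to 700 with 1 library left out, where fewer libraries make overlap rarer. Of 114 named and tested genes, 102 kept their sign under every alternative run. In the other 12 the cause was not tested. With the covariates, Nos3 was -0.012, Vcam1 -0.11 and Sele -0.23, and Nos3 is itself a member of the endothelial list used as a covariate. Sele was -0.18 on log2(FPKM + 0.1) and -1.09 with voom. With library weights, Apoe was 0.33 and Kdr -0.10. Without HDL 11 and saline 2, Apoe was 0.18, Irf9 -0.026, Ciita -0.04, Akr1b7 0.20, Star 0.61, Hsd3b1 0.97 and Kdr 0.75. With 1 library left out the ranges were -0.44 to 1.45 for Nos3, -0.58 to 0.98 for Vcam1, -0.95 to 1.17 for Sele, -0.54 to 0.25 for Apoe, -0.13 to 1.24 for Ciita, -2.48 to 0.11 for Akr1b7, -1.92 to 0.42 for Star, -2.53 to 0.71 for Hsd3b1, -0.043 to 0.97 for Esam, 0.0037 to 0.52 for Irf9, -0.28 to 0.68 for Kdr and -0.19 to 1.20 for Cdh5. No paired analysis was possible because the animal numbers differ between the groups. Values of genes with few reads carry the largest counting error.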
